A study of Mus musculus with 2 samples.

Results

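The 10 genes of fatty acid uptake and lipogenesis described here were compared in mouse lung after endothelial Foxf1 was targeted, as the levels of Cd36, Lpl, Fabp4, Fabp5, Scd1, Fasn, Acaca, Elovl6, Srebf1 and Pparg in a knockout pool and a control pool. The genes were taken by symbol from both libraries, and all 10 were listed, among 22072 genes in all. The knockout mice were C57/BL6 with Pdgfb-iCreER and floxed Foxf1 alleles, and the control mice carried those alleles with no Cre, so that an effect of the Cre and one of less Foxf1 cannot be told apart. Pdgfb-iCreER drives an inducible Cre recombinase from the Pdgfb promoter, which is active in endothelium. Each group is 1 library, made from the pooled lung RNA of several mice. How many mice were pooled, their sex and age, and when Cre was induced were not given in the sources used. Every difference below therefore compares 2 libraries without a replicate check, and no p-value was computed. Intervals after folds are 95% counting intervals from approximate reads. They leave out the variation between mice, pools and library preparations.

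Cells obtain fatty acids from the blood or make them. On the capillary surface lipoprotein lipase, anchored by GPIHBP1, releases fatty acids from lipoproteins, CD36 takes them up, and cytosolic fatty acid binding proteins carry them on. For synthesis, acetyl-CoA carboxylase makes malonyl-CoA, fatty acid synthase builds palmitate from it, ELOVL6 lengthens palmitate and SCD1 adds the double bond. The transcription factor SREBP-1, encoded by Srebf1, drives much of this synthesis, and PPAR-gamma drives uptake and storage. In lung, alveolar type 2 cells make lipid for surfactant, alveolar macrophages clear it, and capillary endothelium is rich in Cd36.

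Promoter sequences show the letters in front of genes that differed between the pools and of 1 that holds forkhead letters. RefSeq windows (GRCm38.p6) were matched for 6 of the 10 genes, with 10 windows in all, and the 250 bases before each annotated start were searched on both strands. Lpl, Fabp4, Fabp5 and Scd1 had no window and were not searched. Shown 5′ to 3′ are Fasn, the higher synthesis gene with a window (chr11:120824548-120824797, minus strand), Cd36, the gene that was lower (chr5:17835897-17836146, minus strand), and Elovl6 (chr3:129532136-129532385, plus strand), with matched letters in capitals. The Cd36 window lies near its most downstream annotated start, where the level was 1.17-fold higher. It is far from the starts where Cd36 was lower.
Fasn: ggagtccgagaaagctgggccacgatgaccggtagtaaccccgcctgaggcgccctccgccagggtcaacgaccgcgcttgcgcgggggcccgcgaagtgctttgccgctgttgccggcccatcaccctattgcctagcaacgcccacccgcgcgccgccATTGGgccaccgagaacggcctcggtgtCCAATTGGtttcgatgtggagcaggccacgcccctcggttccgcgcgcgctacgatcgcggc
Cd36: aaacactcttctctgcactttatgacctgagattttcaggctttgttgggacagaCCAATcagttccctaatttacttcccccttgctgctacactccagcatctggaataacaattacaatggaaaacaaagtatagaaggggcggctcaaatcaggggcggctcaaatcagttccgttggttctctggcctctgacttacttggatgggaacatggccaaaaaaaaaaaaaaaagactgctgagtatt
Elovl6: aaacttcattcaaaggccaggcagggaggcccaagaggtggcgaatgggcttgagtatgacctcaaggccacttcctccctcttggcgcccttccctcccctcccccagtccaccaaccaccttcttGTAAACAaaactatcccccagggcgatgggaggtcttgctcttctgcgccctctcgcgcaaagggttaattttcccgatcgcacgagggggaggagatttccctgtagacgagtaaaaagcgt

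The capitals in Fasn mark CCAAT, the NF-Y box, at 62 to 58 bases before the start on the plus strand and at 90 to 86 and 59 to 55 bases on the minus strand, where it reads as its reverse complement. The pair of matches nearest the start overlaps by 2 bases. In Cd36 they mark CCAAT at 195 to 191 bases, and in Elovl6 the forkhead letters TGTTTAC on the minus strand at 123 to 117 bases. CCAAT lay in 6 of the 10 windows, in front of 4 genes (Cd36, Fasn, Srebf1 and Pparg), and in 33.8% of 32851 windows of the same length. TGTTTAC lay in 1 of the 10 windows and in 3.17% of all windows. The sterol response core TCACNCCAC (1.05% of all windows), the E-box CACGTG (6.02%) and direct repeats of AGGTCA spaced by 1 base (0.0335%) or 4 bases (0.0152%) lay in none of the 10 windows, which leave out Lpl, Fabp4, Fabp5 and Scd1. A match is a run of letters in this window and not a bound site.

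Of the 10 genes, 4 had a level in the knockout pool at least 1.5-fold higher on the log2(FPKM + 1) scale (Fabp4, Scd1, Fabp5 and Fasn), 1 was at least 1.5-fold lower (Cd36), and 5 lay within 1.5-fold (Lpl, Acaca, Srebf1, Pparg and Elovl6). FPKM is a level per transcript length and library size. All 10 genes had a mean of 1 FPKM or more, as had 12929 genes in all, of which 9.41% were at least 1.5-fold higher and 4.63% at least 1.5-fold lower. The median log2 ratio was 0.24 over the 10 genes and 0.05 over all 12929. Of the 10 genes, 9 lay above equality, as did 56.8% of all genes.

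**Figure D1:**
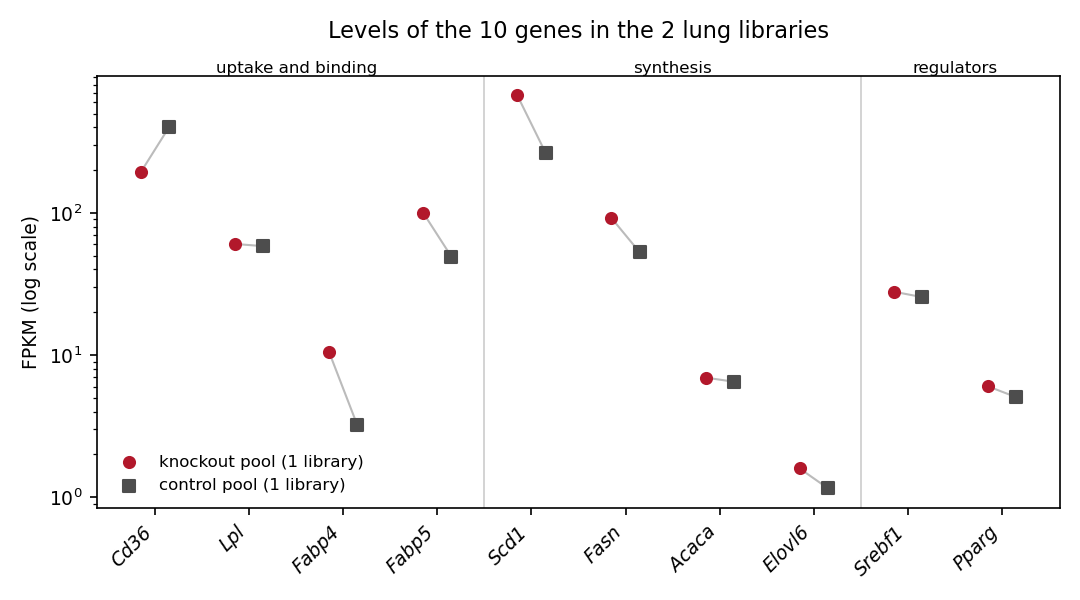
FPKM of each gene on a log axis in the knockout pool (circles, left of each pair) and the control pool (squares, right), 1 library each, with a line joining the pair. Scd1 was the most abundant of the 10 genes in the knockout pool, at 672 FPKM, and Cd36 in the control pool, at 403 FPKM.

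Uptake and binding genes went in both directions. Cd36, which encodes the fatty acid translocase, had 194 FPKM in the knockout pool and 403 FPKM in the control pool, from about 8548 and 22789 reads. The knockout level was 2.07-fold lower (2.02 to 2.12), and 1.08% of the 12929 genes had a lower log2 ratio. In bulk lung RNA, fewer cells of a type and less RNA per cell cannot be told apart. Among markers of general capillary cells, which are rich in Cd36, 7 of 11 were at least 1.5-fold lower and 2 higher, beside 4.63% and 9.41% of all genes. Their summed level was 600 FPKM in the knockout pool and 1430 FPKM in the control pool. The 2 higher were Aplnr, with 30.9 and 15.5 FPKM in that order of pools, and Gpihbp1, given below. The lowest was Npr3, with 5.45 and 44.8 FPKM. The most abundant were Hpgd, with 51.7 and 364 FPKM, and Tmem100, with 61.5 and 292 FPKM. Markers of aerocytes, the capillary cells of gas exchange, were at least 1.5-fold lower in 7 of 10 cases and higher in 1, with a summed level of 553 FPKM in the knockout pool and 885 FPKM in the control pool. Markers shared by all endothelium summed to 1763 FPKM in the knockout pool and 1897 FPKM in the control pool, with 3 of 12 lower and 1 higher. Macrophage markers went mostly the other way. Those of alveolar macrophages were at least 1.5-fold higher in 5 of 14 cases and lower in 3. Those of interstitial macrophages and monocytes were higher in 6 of 10 cases and lower in 0. The part of any of these cells in the Cd36 difference was not tested.

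Cd36 is listed with 5 transcript records on chromosome 5 (mm9) that share their 3′ end and have 3 annotated 5′ starts. The middle start, at position 17355610, carried most of the level, with 159 FPKM in the knockout pool and 352 FPKM in the control pool over 2 records, 2.21-fold lower (2.15 to 2.27). Taken singly, these 2 records were 2.55-fold and 1.69-fold lower. The most upstream start, at 17394777, had 20.5 FPKM in the knockout pool and 38.6 FPKM in the control pool, 1.88-fold lower (1.75 to 2.04). The most downstream start, at 17341714, had 14.7 FPKM in the knockout pool and 12.6 FPKM in the control pool over 2 records, 1.17-fold higher (1.05 to 1.30). Nearly all of that level was assigned to 1 of these 2 records in both libraries. The lower level of Cd36 thus lay with records of the middle and upstream starts. Reads in exons that the records share were divided among them by the authors' quantification, so a level by start is an estimate. Its interval leaves out the error of that division. The single Cd36 window printed above lies 200 bases from the start of the GENCODE transcript paired with the downstream records, and 13833 bases or more from those paired with the others.

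**Figure D2:**
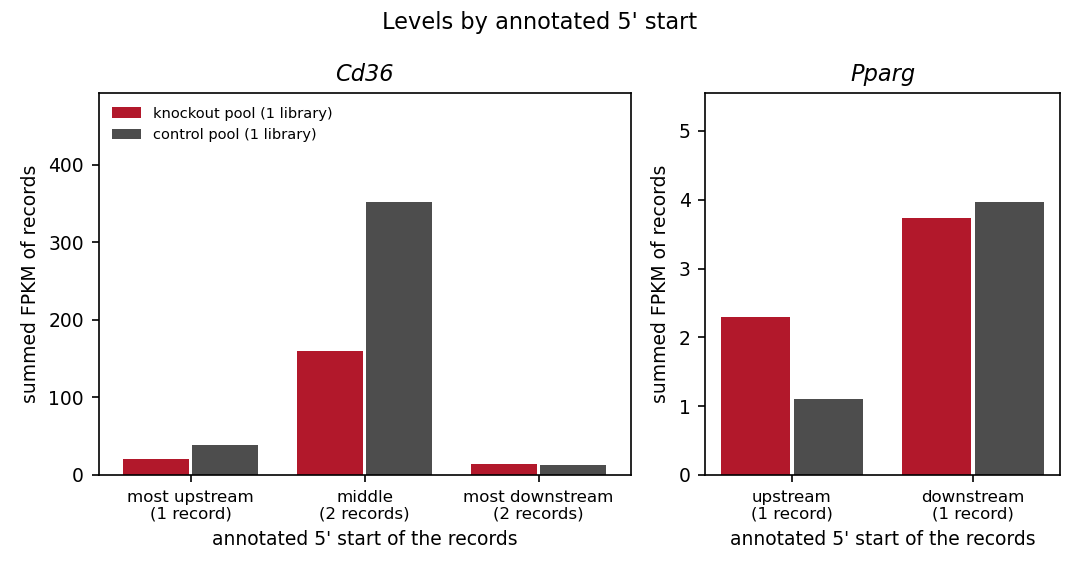
Summed FPKM of the deposited transcript records of Cd36 (left) and Pparg (right) by annotated 5′ start, in the knockout pool (left bar of each pair) and the control pool (right bar), 1 library each. For Cd36 the knockout bar is lower at the middle and upstream starts and slightly higher at the downstream start, and for Pparg it is higher at the upstream start.

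Lpl (chr8:71404454-71430831, mm9), the gene of the lipase that frees fatty acids at the capillary wall, was level between the pools, unlike Cd36. It had 60.5 FPKM in the knockout pool and 58.4 FPKM in the control pool, a ratio of 1.04 (0.989 to 1.09), and the sign of its small difference turned under 3 other scalings. Cd36 thus stood 3.21 times as high as Lpl in the knockout pool and 6.90 times as high in the control pool. The gene of its endothelial anchor, Gpihbp1, had 186 FPKM in the knockout pool and 114 FPKM in the control pool, 1.63-fold higher (1.52 to 1.74).

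Fabp4 and Fabp5, which encode cytosolic fatty acid binding proteins of adipocytes, macrophages, endothelium and epidermis and lie close together on chromosome 3, were both higher. Fabp4 (chr3:10204343-10208576, mm9) had 10.5 FPKM in the knockout pool and 3.20 FPKM in the control pool, 3.27-fold higher (2.17 to 5.01). That ratio rests on about 86 reads in the knockout pool and 34 in the control pool. Fabp5 (chr3:10012606-10016610, mm9) had 100.1 FPKM in the knockout pool and 49.2 FPKM in the control pool, 2.04-fold higher (1.86 to 2.23), from about 1191 and 756 reads. Whether reads of Fabp5 were shared with its pseudogene Fabp5l2 was not tested. Of the same family, Fabp3, the heart and muscle form, had 6.50 FPKM in the knockout pool and 3.49 FPKM in the control pool, 1.86-fold higher (1.19 to 2.90), while Fabp1, the liver form, had 4.85 FPKM in the knockout pool and 7.75 FPKM in the control pool. Fabp2, Fabp6, Fabp7 and Fabp9 were listed at 0 in both libraries.

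Markers of cells that express Fabp4 and Fabp5 moved unevenly. Of 14 adipocyte markers, 11 had a mean below 1 FPKM. Among these, Lep and Ucp1 were at 0 in both libraries, and the adiponectin gene Adipoq, named as a defining marker, had 0.121 FPKM in the knockout pool and 0.0466 FPKM in the control pool. The other 3 were Slc7a10, an amino acid transporter gene with 13.8 FPKM in the knockout pool and 15.8 FPKM in the control pool, Thrsp, with 3.36 FPKM in the knockout pool and 2.09 FPKM in the control pool, and Cidec, with 2.87 FPKM in the knockout pool and 6.10 FPKM in the control pool. The whole list summed to 22.3 FPKM in the knockout pool and 26.4 FPKM in the control pool. Lipofibroblast markers summed to 1266 FPKM in the knockout pool and 1685 FPKM in the control pool, with 1 of 10 at least 1.5-fold higher and 1 lower. By count, 6 of these 10 lay above equality and the median log2 ratio was 0.29, opposite in direction to the sum. Alveolar macrophage markers summed to 544 FPKM in the knockout pool and 473 FPKM in the control pool, with 5 of 14 at least 1.5-fold higher and 3 lower. They ranged from Ctsk, a cathepsin gene at 62.2 FPKM in the knockout pool and 10.3 FPKM in the control pool, to the ribonuclease gene Ear2, at 24.1 FPKM in the knockout pool and 42.8 FPKM in the control pool. The most abundant, the chitinase-like gene Chi3l3, had 313 FPKM in the knockout pool and 295 FPKM in the control pool. Markers of interstitial macrophages and monocytes summed to 653 FPKM in the knockout pool and 488 FPKM in the control pool, with 6 of 10 higher and 0 lower. Endothelial markers, with summed levels given above, went mostly the other way in capillary cells. Those of general capillary cells were lower in 7 of 11 cases and higher in 2, and those of aerocytes lower in 7 of 10 and higher in 1. Of the markers shared by all endothelium, 3 of 12 were lower and 1 higher. Of all 12929 genes, 9.41% were at least 1.5-fold higher and 4.63% lower. The part of any of these cells in the Fabp4 and Fabp5 differences was not tested.

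Synthesis genes were higher or nearly level. Scd1, the stearoyl-CoA desaturase gene (chr19:44468940-44482199, mm9), had 672 FPKM in the knockout pool and 265 FPKM in the control pool, 2.53-fold higher (2.49 to 2.58), from about 41465 and 21141 reads. The difference of 407 FPKM was the largest among the 10 genes, and Scd1 made up 57.3% of their summed FPKM in the knockout pool and 30.5% of it in the control pool. Fasn, the fatty acid synthase gene (chr11:120667272-120685861, mm9), had 92.2 FPKM in the knockout pool and 52.9 FPKM in the control pool, 1.74-fold higher (1.69 to 1.79).

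Acaca (chr11:84008940-84215153, mm9), which encodes the acetyl-CoA carboxylase that supplies fatty acid synthase, had 6.94 FPKM in the knockout pool and 6.49 FPKM in the control pool, a ratio of 1.07 (0.973 to 1.18). Its interval includes equality, whereas that of Fasn does not. Fasn stood 13.3 times as high as Acaca in the knockout pool and 8.15 times as high in the control pool. Elovl6 (chr3:129235304-129341411, mm9), the elongase gene that acts on palmitate, was the least abundant of the 10 genes, at 1.59 FPKM in the knockout pool and 1.15 FPKM in the control pool. Its plain ratio was 1.38 (1.06 to 1.80), with a log2 ratio of 0.27 on the log2(FPKM + 1) scale, which understates ratios at such levels.

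**Figure D3:**
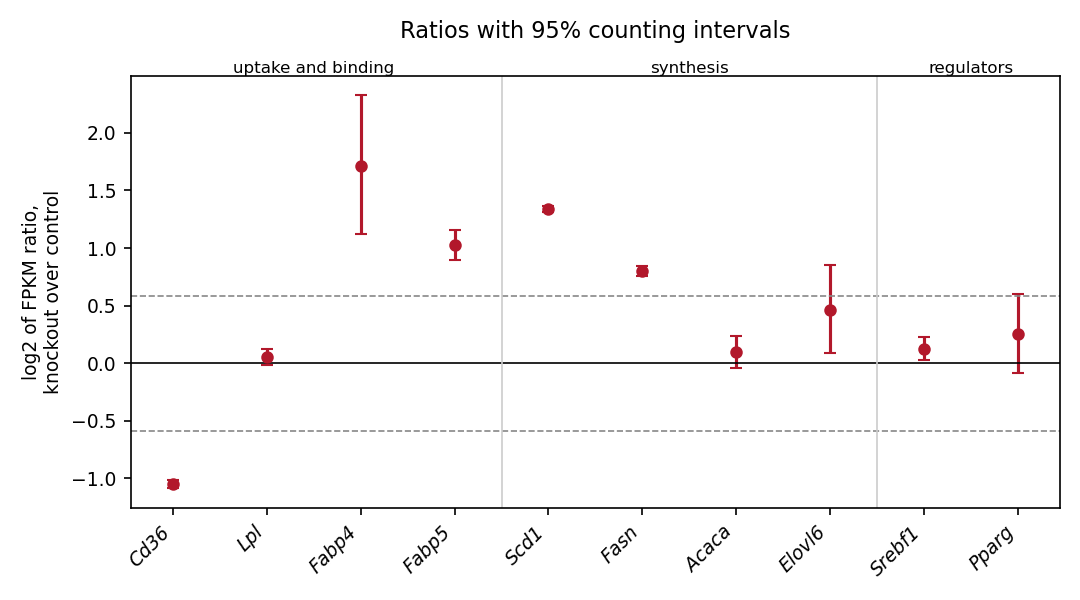
Log2 of the plain FPKM ratio of the knockout pool over the control pool for each gene, with 95% counting intervals; dashed lines mark 1.5-fold. Scd1, Fasn, Fabp4 and Fabp5 lie above the upper line, Cd36 lies below the lower line, and the intervals of Lpl, Acaca and Pparg cross 0.

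Alveolar type 2 cells express Scd1 and Fasn, and 12 of 13 of their markers lay within 1.5-fold. Of all 12929 genes, 14% lay past 1.5-fold in either direction, so most genes lay within it. The 13 markers summed to 18747 FPKM in the knockout pool and 21249 FPKM in the control pool, with 1 at least 1.5-fold higher. Most of that sum came from 3 surfactant protein genes that lay below equality but within 1.5-fold. Sftpc had 13793 FPKM in the knockout pool and 15925 FPKM in the control pool, Sftpb had 1593 FPKM in the knockout pool and 1826 FPKM in the control pool, and Sftpa1, the lowest marker, had 808 FPKM in the knockout pool and 1207 FPKM in the control pool. By count, 8 of the 13 markers lay above equality, and the median log2 ratio of the list was 0.07, opposite in direction to the sum. Muc1, a mucin gene, was the highest marker, at 146 FPKM in the knockout pool and 86.9 FPKM in the control pool. The part of type 2 cells in the Scd1 and Fasn differences was not tested.

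Of the 4 desaturase genes in a cluster on chromosome 19, Scd1 was the one that was higher. Scd2, which is expressed in many tissues, had 177 FPKM in the knockout pool and 198 FPKM in the control pool. Scd3 had 2.62 FPKM in the knockout pool and 3.59 FPKM in the control pool, and Scd4 had 1.32 FPKM in the knockout pool and 1.64 FPKM in the control pool, both named after their values were seen. The ratio of Scd2 was 0.895 (0.875 to 0.916), and the interval of Scd4 includes equality. Whether reads were shared between these related genes was not tested. Of the elongases, Elovl1, which acts on very long chains, had 238 FPKM in the knockout pool and 144 FPKM in the control pool, 1.66-fold higher (1.59 to 1.73). Elovl5 went the other way, with 102 FPKM in the knockout pool and 127 FPKM in the control pool, a ratio of 0.805 (0.772 to 0.839). So did Elovl7, with 1.95 FPKM in the knockout pool and 2.53 FPKM in the control pool, a ratio of 0.771 (0.619 to 0.959).

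**Figure D4:**
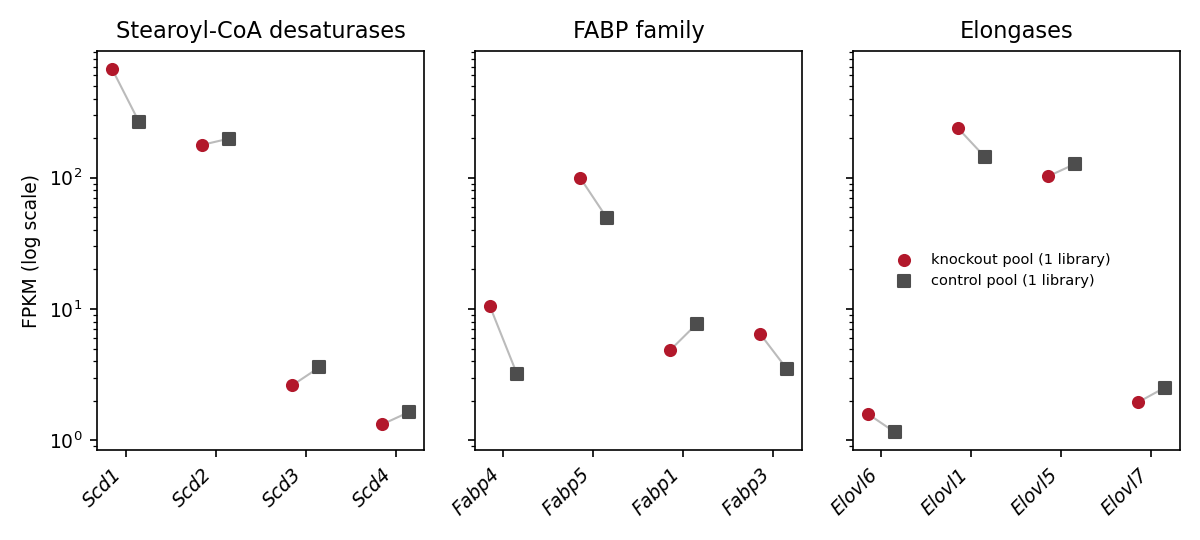
FPKM on a log axis of the desaturase, fatty acid binding protein and elongase genes in the knockout pool (circles, left of each pair) and the control pool (squares, right), 1 library each. Scd1 is higher in the knockout pool while Scd2, Scd3 and Scd4 are slightly lower, and Fabp4, Fabp5 and Fabp3 are higher while Fabp1 is lower. Elovl6 and Elovl1 are higher while Elovl5 and Elovl7 are lower.

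The regulators differed little. Srebf1 (chr11:60012591-60034106, mm9) had 27.9 FPKM in the knockout pool and 25.6 FPKM in the control pool, a ratio of 1.09 (1.02 to 1.17). It is listed with 1 record, so its SREBP-1a and SREBP-1c forms cannot be told apart. Pparg (chr6:115311239-115440419, mm9) had 6.03 FPKM in the knockout pool and 5.06 FPKM in the control pool, a ratio of 1.19 (0.942 to 1.52). Its upstream start had 2.30 FPKM in the knockout pool and 1.10 FPKM in the control pool, from about 54 and 34 reads, 2.09-fold higher (1.31 to 3.25). The downstream start, 60845 bases further on, had 3.73 FPKM in the knockout pool and 3.96 FPKM in the control pool, a ratio of 0.942 (0.703 to 1.26). As with Cd36, reads in exons that the 2 records share were divided between them, so these levels and reads are estimates. The intervals by start leave out the error of that division. Both regulators lay within 1.5-fold.

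By role, the 4 synthesis genes summed to 772 FPKM in the knockout pool and 326 FPKM in the control pool, a ratio of 2.37 that rests mainly on Scd1. The 4 uptake and binding genes summed to 366 FPKM in the knockout pool and 514 FPKM in the control pool, which follows Cd36, their most abundant gene. Scd1 stood 3.45 times as high as Cd36 in the knockout pool and 0.658 times as high in the control pool.

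Beyond the 10 genes, the medians of 9 further lipid lists lay between -0.12 and 0.34 on the log2 scale. Over these lists, 149 genes had a mean of 1 FPKM or more, of which 11 (7.38%) were at least 1.5-fold higher and 10 (6.71%) at least 1.5-fold lower, beside the 9.41% and 4.63% of all genes. In fatty acid transport and activation, 2 of 13 genes were higher and 0 lower. Besides Fabp3 this was Dbi, the acyl-CoA binding protein gene, with 110.1 FPKM in the knockout pool and 66.4 FPKM in the control pool, 1.66-fold higher (1.5 to 1.84). Cav1, the caveolin gene, had 423 FPKM in the knockout pool and 605 FPKM in the control pool.

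Among lipase partners and lipoprotein receptors, 4 of 15 genes were higher and 0 lower, beside 9.41% and 4.63% of all genes. Apoc3, which encodes an inhibitor of lipoprotein lipase, was the highest, with 2.05 FPKM in the knockout pool and 0.454 FPKM in the control pool. Its mean of 1.25 FPKM lay just over the limit of 1 FPKM, and its ratio of 4.52 had a wide interval (1.42 to 18.9). Angptl4, which encodes another inhibitor of that lipase, was the lowest, with 20.8 FPKM in the knockout pool and 30.2 FPKM in the control pool. Lrp1, a lipoprotein receptor gene, had 40.6 FPKM in the knockout pool and 33.2 FPKM in the control pool. In lipogenesis, elongation and desaturation, 2 of 21 genes were higher and 1 lower. Fads2, a desaturase gene for polyunsaturated fatty acids, was the highest, with 37.0 FPKM in the knockout pool and 19.3 FPKM in the control pool, 1.92-fold higher (1.71 to 2.16). Acss2, an acetyl-CoA synthetase gene, was the lowest, with 5.10 FPKM in the knockout pool and 8.69 FPKM in the control pool.

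Lipogenic regulators other than Srebf1 and Pparg lay mostly below equality, 16 of 20, with 0 higher, 1 lower and a median log2 ratio of -0.12. Of all 12929 genes, 56.8% lay above equality, 9.41% were higher and 4.63% lower. Klf15, a Krüppel-like factor gene, was the lowest, with 10.9 FPKM in the knockout pool and 30.4 FPKM in the control pool, and Cebpb was the highest, with 51.4 FPKM in the knockout pool and 35.4 FPKM in the control pool. Cebpa, which like Cebpb encodes a C/EBP factor, had 35.2 FPKM in the knockout pool and 43.7 FPKM in the control pool.

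Cholesterol synthesis genes, which answer to SREBP-2, lay mostly above equality, 18 of 20, with a median log2 ratio of 0.34, 2 higher and 0 lower. The shares over all genes were 56.8% above equality, 9.41% higher and 4.63% lower. Cyp51, which encodes lanosterol demethylase, had 10.4 FPKM in the knockout pool and 5.86 FPKM in the control pool, 1.78-fold higher (1.57 to 2.02). The abundant Hmgcs1, an HMG-CoA synthase gene, had 36.2 FPKM in the knockout pool and 27.9 FPKM in the control pool. Fdps, a farnesyl diphosphate synthase gene, had 38.1 FPKM in the knockout pool and 26.2 FPKM in the control pool, while Pmvk, a phosphomevalonate kinase gene, was the lowest, with 12.9 FPKM in the knockout pool and 18.1 FPKM in the control pool. In triglyceride synthesis and lipid droplets, 0 of 17 genes were higher and 3 lower, and the lowest was Cidec, the lipid droplet gene named above. Agpat1, an acyltransferase gene, had the highest ratio, with 31.8 FPKM in the knockout pool and 24.3 FPKM in the control pool. The droplet coat gene Plin2 had 56.9 FPKM in the knockout pool and 46.9 FPKM in the control pool, and G0s2, which encodes an inhibitor of adipose triglyceride lipase, had 44.4 FPKM in the knockout pool and 35.9 FPKM in the control pool.

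**Figure D5:**
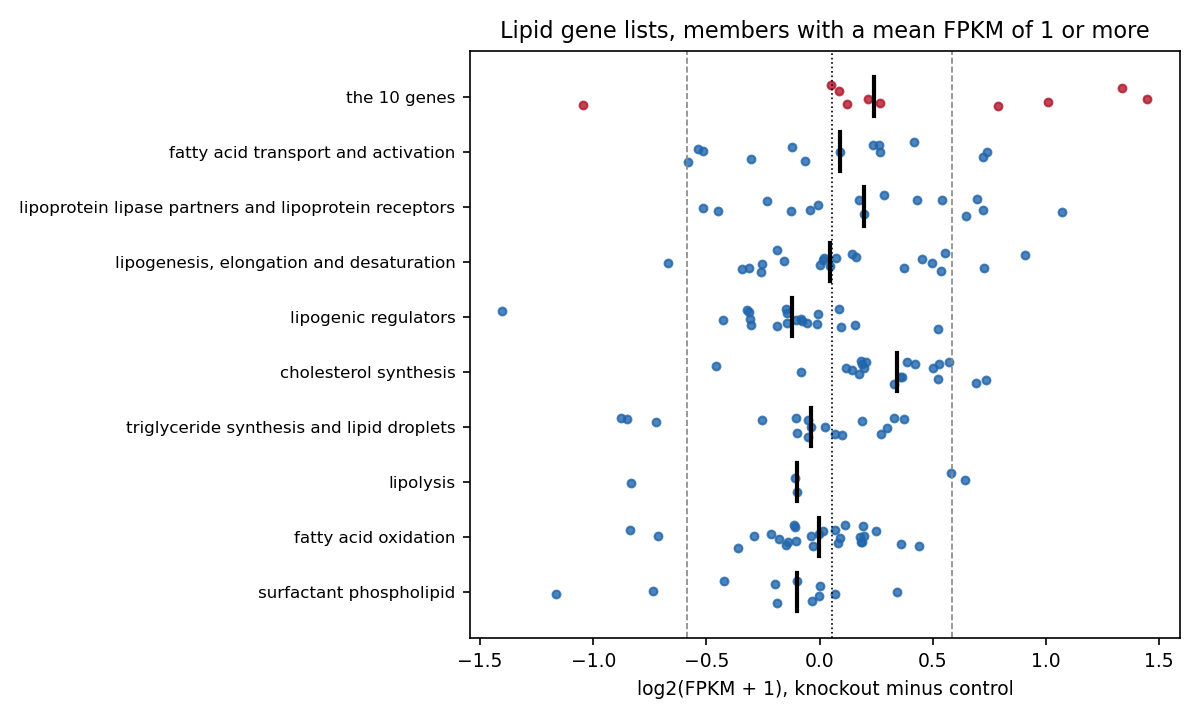
Difference in log2(FPKM + 1), knockout minus control, for each gene of the 10 (top row) and of 9 further lipid lists (rows below), with thick bars at the list medians, a dotted line at the median of all genes (0.05) and dashed lines at 1.5-fold. The cholesterol synthesis list has the highest median, 0.34, and the lipogenic regulators the lowest, -0.12.

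Facts of the libraries as a whole bear on these values. Approximate reads came to 10.4 M in the knockout library and 13.2 M in the control library. Foxf1, listed as Foxf1a, had 15.7 FPKM in the knockout pool and 72.1 FPKM in the control pool, 4.59-fold lower. All 10 cell cycle markers were at least 1.5-fold higher, beside 9.41% of all genes. Their summed level was 309 FPKM in the knockout pool and 66.2 FPKM in the control pool. Airway club and ciliated markers summed to 25534 FPKM in the knockout pool and 40645 FPKM in the control pool. Of these 9 markers, 6 were at least 1.5-fold lower and 0 higher, beside 4.63% and 9.41% of all genes. The part of either marker list in the differences of the 10 genes was not tested.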

How the data were processed

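Whole-lung RNA of 2 genotypes was sequenced, 1 pooled library each, grouped by the genotype in the labels. The authors deposited FPKM values and coverage (aligned bases per transcript base) for 28107 RefSeq transcripts, per the file headers. Of the upstream steps, the submitters' processing notes name mm9 as the build and DESeq as a tool, with no role. The aligner and quantifier were not given in the sources used. All 15 records of the 10 genes had status OK. Deposited starts count from 0, as end minus start gave the length in 3284 records, and 1 was added for printing.

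FPKM was summed over the records of a symbol. Log2 ratios are differences of log2(FPKM + 1), knockout minus control, and calls used a mean of 1 FPKM or more and a fold of 1.5. Single-gene folds are plain FPKM ratios. A read was taken to add about 47.6 bases (knockout) or 47.5 bases (control). These are medians of coverage times length over genes with 1 record, among values between 35 and 65 bases. That range was preset, so the read size and the approximate reads depend on it. Approximate reads gave exact conditional (Clopper-Pearson) 95% intervals, which cover counting error only. The interval was tried only on reads simulated under the counting error that it assumes. That trial does not cover the division of reads among records or the read size. All members of a list over the floor were counted, and from each lipid list, and each marker list with named genes, the text takes by rule the members with the highest and lowest ratio and the 2 highest levels, with other names chosen after their values were seen. The 10 genes and the lists were chosen with earlier results of these data known. Python 3.11.15, pandas 2.3.3 and SciPy 1.17.1 were used. Other pseudocounts, floors, scalings, record choices and a fold of 2 were tried.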

Additional observations from a re-analysis of the deposited data

How the results depend on the processing

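Under 9 alternatives for the values (8 for Elovl6, which lies under a floor of 5 FPKM), the calls of all 10 genes at 1.5-fold were those given above, with 4 higher and 1 lower, and with a fold threshold of 2 Fasn was no longer among the higher genes. Log2 ratios ranged from -1.34 to -1.04 for Cd36, 1.12 to 1.68 for Fabp4, 0.930 to 1.024 for Fabp5, 1.26 to 1.34 for Scd1 and 0.71 to 0.80 for Fasn. The sign of the uncalled Lpl turned under 3 scalings (lowest -0.03) and that of Pparg with its most abundant record alone (-0.07). The 3 scalings shifted log2 ratios by 0.05 to 0.08. Over the 9 further lists the number of higher genes was 7 both at a pseudocount of 3 and at a floor of 5, and a fold threshold of 2 left 1 higher and 2 lower. The share of all genes called lower was 2.87% with a pseudocount of 3, and a fold of 2 left 3.75% higher and 1.253% lower. The median of the lipase partner list was -0.01 with a floor of 5, and that of fatty acid transport was -0.09 with the most abundant records. With 1 library per group no replicate could be left out. No paired analysis was possible because each group holds 1 library. Depth limits Fabp4, Pparg and Elovl6 most, with fewer than 150 reads per library each.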

Other observations

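Of 27 fatty acid oxidation genes, 25 lay within 1.5-fold, 0 were at least 1.5-fold higher and 2 lower, with 13 above and 14 below equality. Of all 12929 genes, 9.41% were higher and 4.63% lower, 14% in either direction. The lowest was Acot1, an acyl-CoA thioesterase gene with 10.2 FPKM in the knockout pool and 18.9 FPKM in the control pool, and it has close paralogs with which reads may be shared. Etfb, an electron transfer flavoprotein gene, was the highest, with 64.7 FPKM in the knockout pool and 47.4 FPKM in the control pool. Ucp2, a mitochondrial carrier gene, had 93.3 FPKM in the knockout pool and 100.8 FPKM in the control pool. Of 5 lipolysis genes, Pnpla2, which encodes adipose triglyceride lipase, had 32.9 FPKM in the knockout pool and 59.4 FPKM in the control pool, 1.81-fold lower (1.68 to 1.94). Lipa, the lysosomal acid lipase gene, went the other way, with 48.6 FPKM in the knockout pool and 30.8 FPKM in the control pool, 1.58-fold higher (1.47 to 1.69).

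Surfactant phospholipid genes had 0 of 11 members higher and 2 lower, beside 9.41% and 4.63% of all genes. Pla2g1b, a secreted phospholipase gene, had 6.44 FPKM in the knockout pool and 15.7 FPKM in the control pool. Prdx6, which encodes a peroxiredoxin with phospholipase activity, had 361 FPKM in the knockout pool and 603 FPKM in the control pool, 1.67-fold lower (1.63 to 1.71). Lpcat1, which makes the dipalmitoyl phosphatidylcholine of surfactant, had 118 FPKM in the knockout pool and 92.7 FPKM in the control pool.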
